A study of Mus musculus with 8 samples.

Results

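A 250-nt stretch of mouse chromosome 1, chr1:131573786-131574035 (mm10, plus strand), held 362 of the 20210 small RNA names listed in 2 deposited tables of sperm small RNA. Its members were chosen by position: each name was kept once in a table, at its first locus after sorting by chromosome and start, and counted here if that locus lay in the window. This gave 251 of 13450 names in the MC-LR table, or 1.87%, and 322 of 17375 names in the Hsp90aa1 shRNA table, or 1.85%. The tables shared 211 of these members, which is 84.1% of the members in the MC-LR table and 65.5% of those in the Hsp90aa1 shRNA table.

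All 8 libraries were small RNA from the sperm of Balb/c mice of 8 months. The labels put 2 libraries in each group: MC-LR, set against control, and Hsp90aa1 shRNA, set against a negative-control shRNA. MC-LR is microcystin-LR, a toxin of cyanobacteria that inhibits serine/threonine protein phosphatases, and Hsp90aa1 encodes the inducible cytosolic form of the chaperone Hsp90, against which a short hairpin RNA was directed. The level of the Hsp90aa1 transcript was not analysed here. The design text mentions more than 1 dose of MC-LR, yet no label gives a dose, and nothing states how the hairpin was delivered or to which cells. Separate animals are not stated for libraries of the same group, so a p-value here reflects library-to-library spread that may be purely technical.

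PIWI-interacting RNAs (piRNAs) are small RNAs of the animal germ line that guide PIWI proteins to matching transcripts, many of them from transposons. In mouse spermatocytes and round spermatids the most abundant ones are cut from long single-stranded precursors transcribed from a limited number of intergenic clusters. An intermediate with a fixed 5′ end is loaded into a PIWI protein and then trimmed at its 3′ end, and Hsp90 chaperones are known to take part in loading small RNAs into such proteins. Sperm also carry other small RNAs, among them microRNAs and fragments of transfer and ribosomal RNA.

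Depth ranged from 4960467 to 14634370 reads per library, and 1 read was worth 0.0683 to 0.202 RPM, the unit of the tables, which is reads scaled to the total reads of their library. The listed names held 12.5% and 11.7% of the reads in the MC-LR libraries, 38.1% and 35.2% in the control libraries, 4.88% and 3.16% with the Hsp90aa1 shRNA and 27.7% and 32.3% with the negative-control shRNA, so both tables as a whole were lower under MC-LR and with the Hsp90aa1 shRNA. As a check of the sperm label, the germ cell microRNA genes Mir34b, Mir34c and Mir449a had no listed name in the MC-LR table, and 12, 13 and 1 listed names in the Hsp90aa1 shRNA table. There Mir34b summed to 293 and 67.8 RPM with the Hsp90aa1 shRNA, against 688 and 1293 RPM with the negative control, and Mir34c to 339 and 94 RPM, against 635 and 1343 RPM. Mir449a had 2.02 and 1.02 RPM with the Hsp90aa1 shRNA, against 3.30 and 4.33 RPM with the negative control. These germ cell genes were thus lower with the Hsp90aa1 shRNA, as the locus was, and the Hsp90aa1 shRNA libraries also differed from each other. Mir200b, a microRNA of epithelia, summed to 1332 and 1365 RPM in the MC-LR libraries, against 3351 and 2496 RPM in the control libraries, and to 195 and 55.6 RPM with the Hsp90aa1 shRNA, against 1338 and 1892 RPM with the negative control. The other epithelial genes listed, Mir200c and Mir141, were present in all 8 libraries as well. Mir144 of blood had no listed name in the MC-LR table, and 3.44 and 5.63 RPM with the Hsp90aa1 shRNA, against 40 and 61.4 RPM with the negative control. A set of 4 further genes of the marker list was not analysed here. Mir451a of blood summed to 0.505 and 1.07 RPM in the MC-LR libraries, against 1.91 and 3.02 RPM in the control libraries. It summed to 40.3 and 50.6 RPM with the Hsp90aa1 shRNA, against 233 and 344 RPM with the negative control. The part of such cells in the results below was not tested, and fewer cells of a type and less RNA per cell cannot be told apart in bulk RNA.

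The locus stood apart from other listed loci and lay outside every annotated gene. It was between Fam72a, which ends 33.9 kb before it, and Avpr1b, the gene of a vasopressin receptor, which begins 25.2 kb after it, and it overlapped no exon. The nearest other listed loci on chromosome 1 were 6398 kb before and 4791 kb after it in the MC-LR table, and 3371 kb before and 1460 kb after it in the Hsp90aa1 shRNA table. Every member was on the plus strand. A further 1 and 3 names of the tables were listed in the window but had their first locus elsewhere on chromosome 1, and were left out.

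The members formed piles of overlapping names with empty bases between them. The first stack, chr1:131573821-131573875, spanned 55 nt and held 145 members in the MC-LR table and 157 in the Hsp90aa1 shRNA table. The second stack, chr1:131573930-131573969, spanned 40 nt with 22 and 33 members in the same tables, and the third, chr1:131573972-131574035, spanned 64 nt with 84 and 126 members. The remaining 6 members, in the Hsp90aa1 shRNA table alone, lay in a run of 28 nt at the very start of the window, with 5 members, and a run of 24 nt just before the second stack, with 1 member. Because members of a stack cover the same bases, they share sequence and are not independent measurements.

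Ends were frayed on both sides. In the MC-LR table the 251 members used 59 starts and 60 ends, with at most 11 members at 1 start, and in the Hsp90aa1 shRNA table the 322 members used 75 starts and 70 ends. Lengths ran from 18 to 33 nt with a median of 26 nt in the MC-LR table, against 27 nt over all its names, and from 17 to 33 nt with a median of 25 nt in the Hsp90aa1 shRNA table, against 26 nt over all its names. Members of 17 to 23 nt, the shortest class, numbered 53 of 251 and 97 of 322. Those of 24 to 28 nt numbered 131 and 159, and those of 29 to 33 nt, 67 and 66.

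Most members were also listed at a second locus. Of the 251 members under MC-LR and control, 212 had a further locus, and of the 322 under the shRNAs, 259 did, at chr5:146261031-146261266, on the plus strand in an intron of Cdk8, which encodes a kinase of the Mediator complex. Set against the first stack, that copy held 12 extra nt before the second stack and 22 extra nt before the third. A further copy at chr3:62159104-62159182, between genes, was listed for 10 and 28 members, and one at chr2:22744849-22744901, between genes on the minus strand, for 7 and 21. Values were the same at every locus for 212 of 213 members with several loci in the MC-LR table and for 265 of 268 in the Hsp90aa1 shRNA table. Reads of such members were thus given to each locus and do not tell which copy they came from. Only 38 and 54 members were listed on chromosome 1 alone.

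The members together were lower under MC-LR. They summed to 1187 and 1165 RPM in the MC-LR libraries, against 4415 and 3838 RPM in the control libraries. The mean of the sums was 1176 ± 15.2 RPM with MC-LR and 4126 ± 408 RPM in controls (SD, n = 2 each), 3.51-fold lower with MC-LR. The groups did not overlap, and the MC-LR libraries lay close together. An exact permutation test of 2 libraries against 2 cannot give a p below 0.33, so no such test was made of this sum. As a share of all listed names, the members made up 0.952% and 0.994% in the MC-LR libraries, against 1.16% and 1.09% in the control libraries, so most of the fall of the locus was shared with the table as a whole.

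Name by name, limma on log2(RPM + 1) with Benjamini-Hochberg adjustment over all 13271 names tested put 175 of 251 members below control at an adjusted p of 0.05 and none above it, with 0 higher at an unadjusted p under 0.05 as well. The share of members lower was 69.7%, beside 73.1% of all names tested lower and 2.37% higher, which is near the background of the table. edgeR on the recovered reads called 183 members lower and 0 higher, and its share over all names is not given here. The edgeR member median log2 fold change was -1.51, beside -1.64 over all names. With limma the median member log2 fold change was -1.10, from -3.70 to -0.48, against a median of -1.17 over all names. For 237 members every MC-LR value was below every control value, where 92.6% of all names had groups apart in this way, and for 14 members the groups overlapped. Without MC-LR library A the member median log2 fold change was -1.09, beside -1.19 over all names. Without MC-LR library B it was -1.18, beside -1.20 over all names. When the libraries were scaled within the list by trimmed mean of M-values (TMM), the median of all names moved to 0.04 and that of the members to 0.12. On that scale 149 members were above 0 and 102 below, and 1 member was called lower and 0 higher, beside 2.97% of all names lower and 2.38% higher.

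The first stack carried most of the locus and, taken as a whole, fell furthest. It summed to 890 and 874 RPM in the MC-LR libraries, against 3715 and 3102 RPM in the control libraries, 3.86-fold lower by means (882 ± 11.1 RPM and 3409 ± 434 RPM, SD, n = 2 each). The third stack summed to 262 ± 9.9 RPM with MC-LR and 645 ± 28.1 RPM in controls (SD, n = 2 each), 2.46-fold lower. The second stack was small, with 31.6 ± 5.82 RPM under MC-LR and 72.5 ± 2.2 RPM in controls (SD, n = 2 each), 2.30-fold lower. Of the tested members, 120 of 145 in the first stack, 8 of 22 in the second and 47 of 84 in the third were called lower with limma at the same threshold. These are 82.8%, 36.4% and 56%, beside 73.1% of all names tested. With TMM scaling within the list the medians were -0.11 in the first stack, 0.24 in the second and 0.31 in the third. On that scale only the first stack thus had a median below 0, with 63 of its members above 0 and 82 below. In the second stack 18 were above 0 and 4 below, and in the third 68 and 16.

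**Figure D1:**
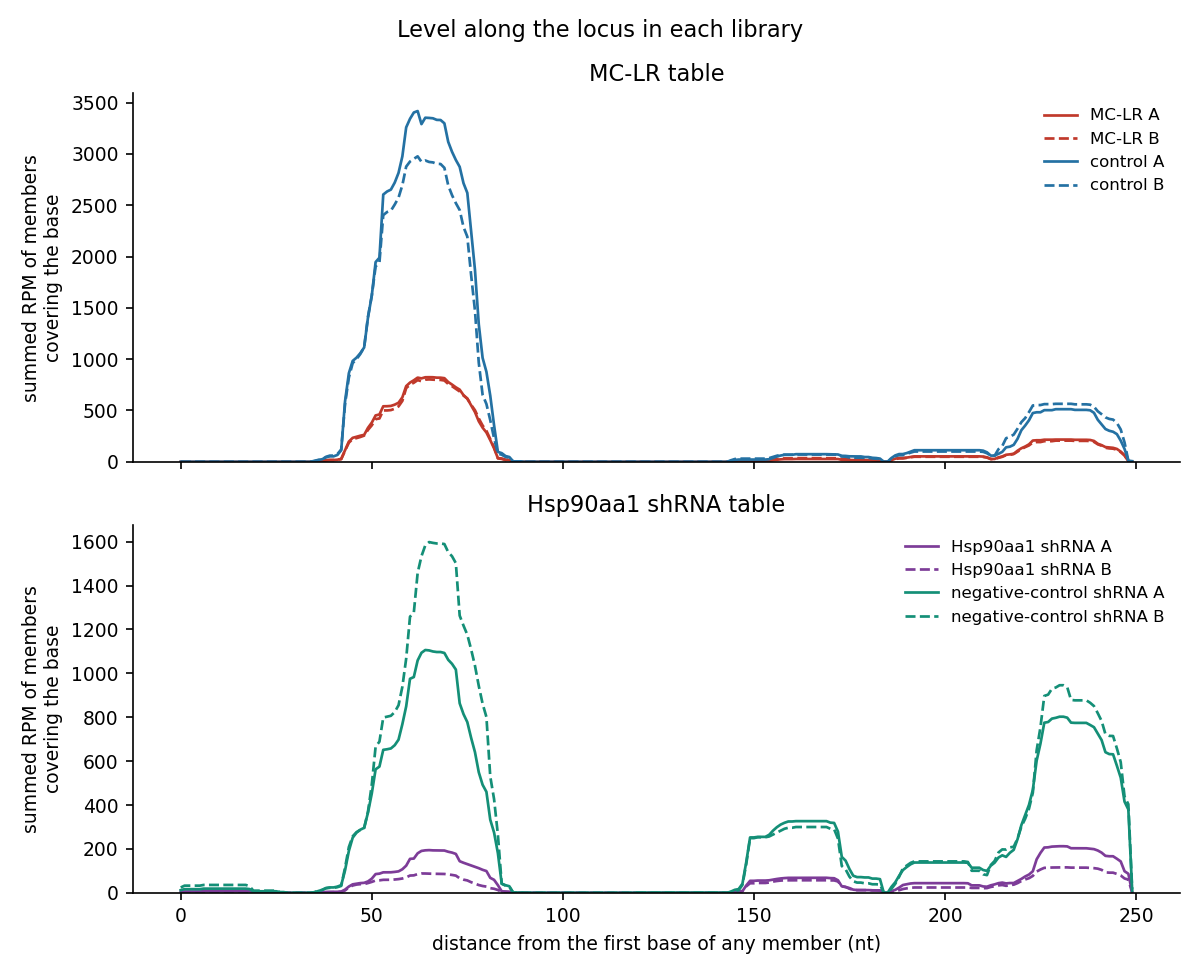
Summed RPM of the members covering each base (vertical axis, RPM) against the distance from the first base of any member (horizontal axis, nt), 1 line per library, with MC-LR and control above and Hsp90aa1 shRNA and negative-control shRNA below. The first stack peaked at 824 and 803 RPM in the MC-LR libraries, against 3419 and 2977 RPM in the control libraries. In the lower panel the third stack peaked at 212 and 116 RPM with the Hsp90aa1 shRNA, against 803 and 946 RPM with the negative control.

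The share of the first stack in the locus, which does not depend on the scaling of the libraries, was 75% in both MC-LR libraries, against 84.2% and 80.8% in the control libraries. The ratio of the first to the third stack was 3.30 and 3.42 in the MC-LR libraries, against 5.94 and 4.66 in the control libraries, a log2 difference of -0.65. The groups did not overlap, although the control libraries differed from each other by more than the MC-LR libraries did. This ratio was chosen after its values were seen and is given with no test. Among members of 17 to 23 nt alone the log2 difference was -0.15, among those of 24 to 28 nt -1.01, and among those of 29 to 33 nt -0.72.

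The most abundant member of the MC-LR table, piR-mmu-4805370 (25 nt, chr1:131573839-131573863, first stack), had 28.6 and 27 RPM in the MC-LR libraries, against 234 and 192 RPM in the control libraries. The groups were far apart, and its log2 fold change was -2.89 ± 0.34 (SE) with an adjusted p of 0.000243 (limma). Its log2 fold change was -1.21 with TMM scaling within the list, at an adjusted p of 0.0618 (limma). The 1-nt shorter form with the same start, piR-mmu-26494778, had 19.2 and 15.9 RPM in the MC-LR libraries, against 168 and 115 RPM in the control libraries. The 23-nt form, piR-mmu-4366147, had 16.8 and 14.6 RPM in the MC-LR libraries, against 116 and 84.5 RPM in the control libraries. In all 3 forms both MC-LR values were well below both control values.

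The largest fall lay 1 base further along, and a much smaller one a few bases beyond it. The largest was that of piR-mmu-23825802 (24 nt, chr1:131573840-131573863), with 2.19 and 1.52 RPM (13 and 10 reads) in the MC-LR libraries, against 38.4 and 33.7 RPM (562 and 167 reads) in the control libraries. Its log2 fold change was -3.70 ± 0.35 (SE) with an adjusted p of 0.000243 (limma), and it was the 1 member still called with TMM scaling within the list, at a log2 fold change of -2.27 and an adjusted p of 0.00148 (limma). By contrast piR-mmu-49387854 (22 nt, chr1:131573845-131573866) had 37.2 and 40.8 RPM in the MC-LR libraries, against 81.9 and 48.0 RPM in the control libraries. Its groups did not overlap, but control B was close to the MC-LR libraries, and its log2 fold change of -0.67 ± 0.37 (SE) did not pass (adjusted p = 0.108, limma). It was above 0 with TMM scaling within the list, at 1.00.

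The most used start also differed between the groups. In both control libraries the start with the highest sum was base 131573839, and in both MC-LR libraries it was base 131573845. This pair of starts was chosen after its values were seen. The 5 members at 131573839 summed to 79.8 and 78.8 RPM in the MC-LR libraries, against 616 and 463 RPM in the control libraries, 6.80-fold lower by means. The 7 members at 131573845 summed to 109 and 125 RPM in the MC-LR libraries, against 282 and 180 RPM in the control libraries, 1.98-fold lower. As shares of the locus, the earlier start took 6.72% and 6.76% in the MC-LR libraries, against 13.9% and 12.1% in the control libraries, and the later start 9.22% and 10.7% in the MC-LR libraries, against 6.4% and 4.70% in the control libraries. Each group was apart from the other at both starts.

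The start at base 131573829, the second most used in the control libraries, carried piR-mmu-49048036 of 20 nt and piR-mmu-5097201 of 27 nt. The shorter one had 27.4 and 27 RPM in the MC-LR libraries, against 152 and 75.8 RPM in the control libraries. The longer one had 18.3 and 14.3 RPM in the MC-LR libraries, against 98 and 102 RPM in the control libraries. Both were called lower (log2 fold change -1.94 ± 0.40 and -2.55 ± 0.34, SE; adjusted p = 0.00238 and 0.000302, limma). The longest member, piR-mmu-67677729 of 33 nt, shared this start, with 4.38 and 4.73 RPM in the MC-LR libraries, against 23.3 and 60.9 RPM in the control libraries, and was also called lower.

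On the log2(RPM + 1) scale, which understates the change of low members, the smallest falls were at low levels outside the first stack. In the second stack piR-mmu-55278117 had 0.673 and 0.610 RPM in the MC-LR libraries, against 2.25 and 0.605 RPM in the control libraries, and the groups overlapped. In the third stack piR-mmu-50985445 had 1.68 and 2.29 RPM in the MC-LR libraries, against 4.10 and 2.42 RPM in the control libraries. There piR-mmu-41691849 had 0.505 and 1.07 RPM in the MC-LR libraries, against 1.78 and 1.21 RPM in the control libraries. None of the 3 passed the threshold (limma adjusted p = 0.223, 0.206 and 0.164), and with TMM scaling within the list all 3 were above 0. By the ratio of group means the order differed: the smallest fall was then that of piR-mmu-49508583 in the third stack, named after its values were seen, with 3.53 and 5.03 RPM in the MC-LR libraries, against 9.43 and 4.23 RPM in the control libraries. Its groups overlapped, and its log2 ratio of means was -0.67, beside -0.73 for the abundant piR-mmu-49387854 and -1.16 for piR-mmu-55278117. The median member had 14 and 18 reads in the MC-LR libraries, against 118 and 40 reads in the control libraries, and 23 and 9 members, against 0 and 1, had fewer than 3 reads. Such limits reflect counting error alone, and the labels mention no molecular identifiers.

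**Figure D2:**
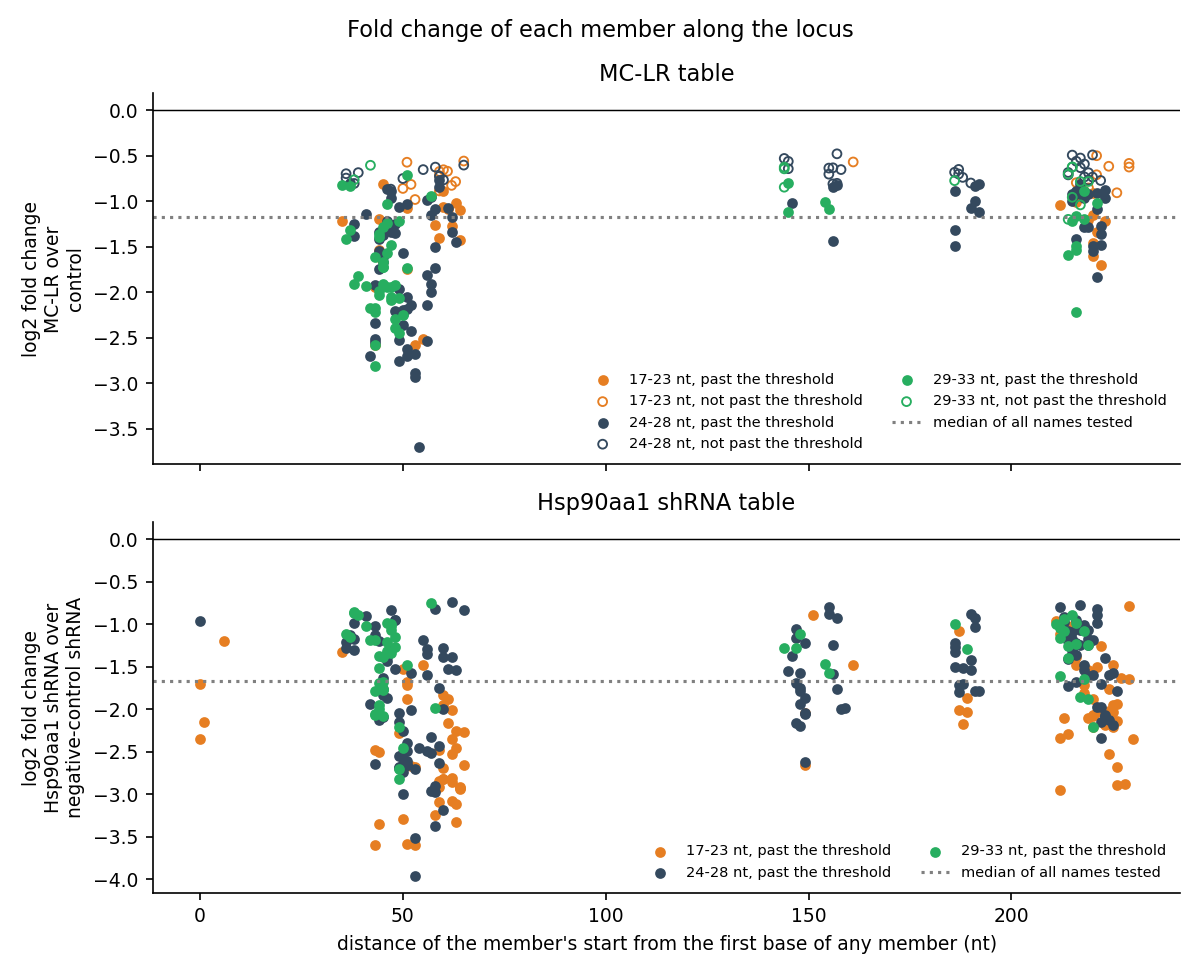
Log2 fold change of each tested member on the log2(RPM + 1) scale (vertical axis) against the distance of its start from the first base of any member (horizontal axis, nt), with MC-LR over control above and Hsp90aa1 shRNA over negative-control shRNA below. Colours give the length class, filled points passed the limma threshold, and the dotted line is the median of all names tested, -1.17 above and -1.66 below. The values are those without scaling within the list, on which all members lay below 0. The lowest points of both panels lie in the first stack.

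The locus was lower with the Hsp90aa1 shRNA as well. The members summed to 533 and 291 RPM in the Hsp90aa1 shRNA libraries, against 2439 and 3123 RPM in the negative-control shRNA libraries. The mean was 412 ± 171 RPM with the Hsp90aa1 shRNA and 2781 ± 483 RPM with the negative control (SD, n = 2 each), 6.75-fold lower. The groups were far apart, while library A with the Hsp90aa1 shRNA was well above library B. As a share of all listed names the members held 1.09% and 0.922% with the Hsp90aa1 shRNA, against 0.880% and 0.968% with the negative control, and these ranges overlapped. Divided by the sum of all listed names, the log2 ratio of the locus was 0.12, against -2.75 without that division.

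All 315 members tested were called lower with limma, and 7 members were too low to be tested. This stands beside 99.5% of all 16857 names tested lower and 0.219% higher, and is no more than the background of the table. edgeR on the recovered reads called 314 lower and 0 higher, and its share over all names is not given here. The edgeR member median log2 fold change was -2.73, beside -2.83 over all names. With limma the median log2 fold change was -1.71, from -3.96 to -0.74, against -1.66 over all names. For 322 of 322 members every Hsp90aa1 shRNA value was below every negative-control value, beside 99.8% of all names. With TMM scaling within the list the median of all names moved to -0.04 and that of the members to -0.01, with 156 members above 0 and 159 below. On that scale limma called 0 members in either direction, 22 had an unadjusted p under 0.05, and 0.142% of all names were called lower and 0.208% higher. Reads were few: the median member had 11 and 5 reads with the Hsp90aa1 shRNA, against 44 and 69 with the negative control, and 21 and 90 members had fewer than 3 reads, against 0 and 0.

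The stacks held other proportions of the locus than in the MC-LR table, though the tables listed different members. Of the 111 members listed in the Hsp90aa1 shRNA table alone, 60 lay in the third stack. The first stack summed to 145 ± 78.3 RPM with the Hsp90aa1 shRNA and 1424 ± 385 RPM with the negative control (SD, n = 2 each), 9.79-fold lower. The second stack summed to 62.9 ± 8.01 RPM with the Hsp90aa1 shRNA and 313 ± 18.9 RPM with the negative control (SD, n = 2 each), 4.98-fold lower. The third stack summed to 198 ± 82.1 RPM with the Hsp90aa1 shRNA and 1015 ± 105 RPM with the negative control (SD, n = 2 each), 5.11-fold lower. With TMM scaling within the list the medians were -0.27 in the first stack, 0.35 in the second and 0.20 in the third. The median of the first stack was again the lowest of the 3, on both scales, with -1.99, -1.58 and -1.54 before that scaling.

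The first stack made up 37.7% and 31.0% of the locus with the Hsp90aa1 shRNA, against 47.2% and 54.3% with the negative control. The ratio of the first to the third stack was 0.783 and 0.642 with the Hsp90aa1 shRNA, against 1.22 and 1.56 with the negative control, a log2 difference of -0.96. In both Hsp90aa1 shRNA libraries the third stack was the larger, and in both negative-control libraries the first stack was. Which stack was larger depended on the names counted. Among the 211 members of both tables the first stack was the larger with the Hsp90aa1 shRNA too, at 107 and 62.6 RPM, against 60.7 and 33.7 RPM. The log2 difference between the groups was of the same sign in each length class. It was -0.87 for 17 to 23 nt, -1.19 for 24 to 28 nt and -0.66 for 29 to 33 nt. As in the MC-LR table the ratio was chosen after its values were seen, and it carries no test.

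**Figure D3:**
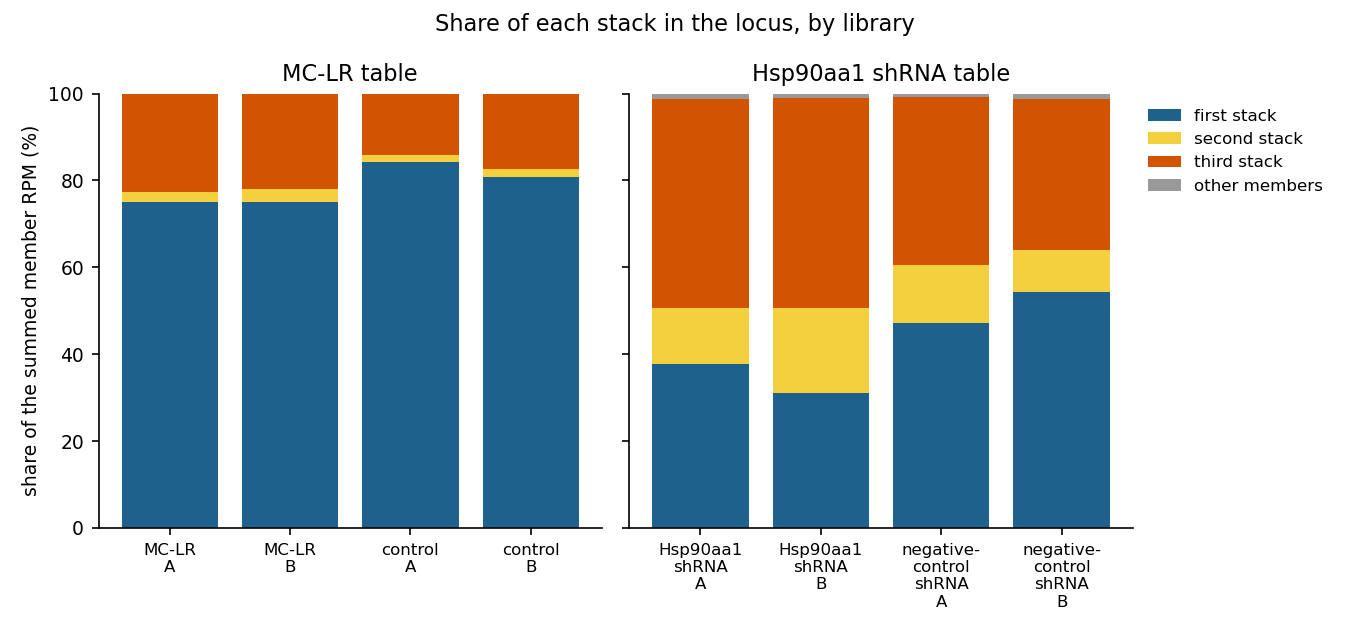
Share of the summed member RPM held by each stack (vertical axis, percent) in each library (horizontal axis), with MC-LR and Hsp90aa1 shRNA libraries left of their controls. The first stack (blue) is smaller in both MC-LR libraries, at 75%, than in the controls, at 84.2% and 80.8%, and smaller in the Hsp90aa1 shRNA libraries, at 37.7% and 31.0%, than in the negative controls, at 47.2% and 54.3%.

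The most abundant member of the Hsp90aa1 shRNA table, piR-mmu-5908037 (23 nt, chr1:131574012-131574034, in the third stack), was not listed in the MC-LR table. It had 17 and 5.45 RPM with the Hsp90aa1 shRNA, against 66.3 and 93.6 RPM with the negative control. The groups were apart, and its log2 fold change was -2.89 ± 0.65 (SE) with an adjusted p of 0.00233 (limma). With TMM scaling within the list it was -0.17, with an adjusted p of 0.918 (limma). Close to it, piR-mmu-49895007 had 28.8 and 8.86 RPM with the Hsp90aa1 shRNA, against 54.3 and 86.4 RPM with the negative control. Likewise piR-mmu-55279519 had 16.1 and 6 RPM with the Hsp90aa1 shRNA, against 41.5 and 57.1 RPM with the negative control. Both were called lower (log2 fold change -2.02 and -2.18), and both were above 0 with TMM scaling within the list, at 0.73 and 0.52.

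Abundant members of the first stack showed the same order of libraries. The 22-nt piR-mmu-49204020 had 11.8 and 1.48 RPM with the Hsp90aa1 shRNA, against 46.3 and 94.6 RPM with the negative control. The 19-nt piR-mmu-49638692 had 12.1 and 2.12 RPM with the Hsp90aa1 shRNA, against 31.3 and 90.2 RPM with the negative control. The 24-nt piR-mmu-10842591 had 8.31 and 2.95 RPM with the Hsp90aa1 shRNA, against 45.4 and 64.6 RPM with the negative control. In all 3 the groups were apart, library A was the higher with the Hsp90aa1 shRNA, and library B was the higher with the negative control.

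**Figure D4:**
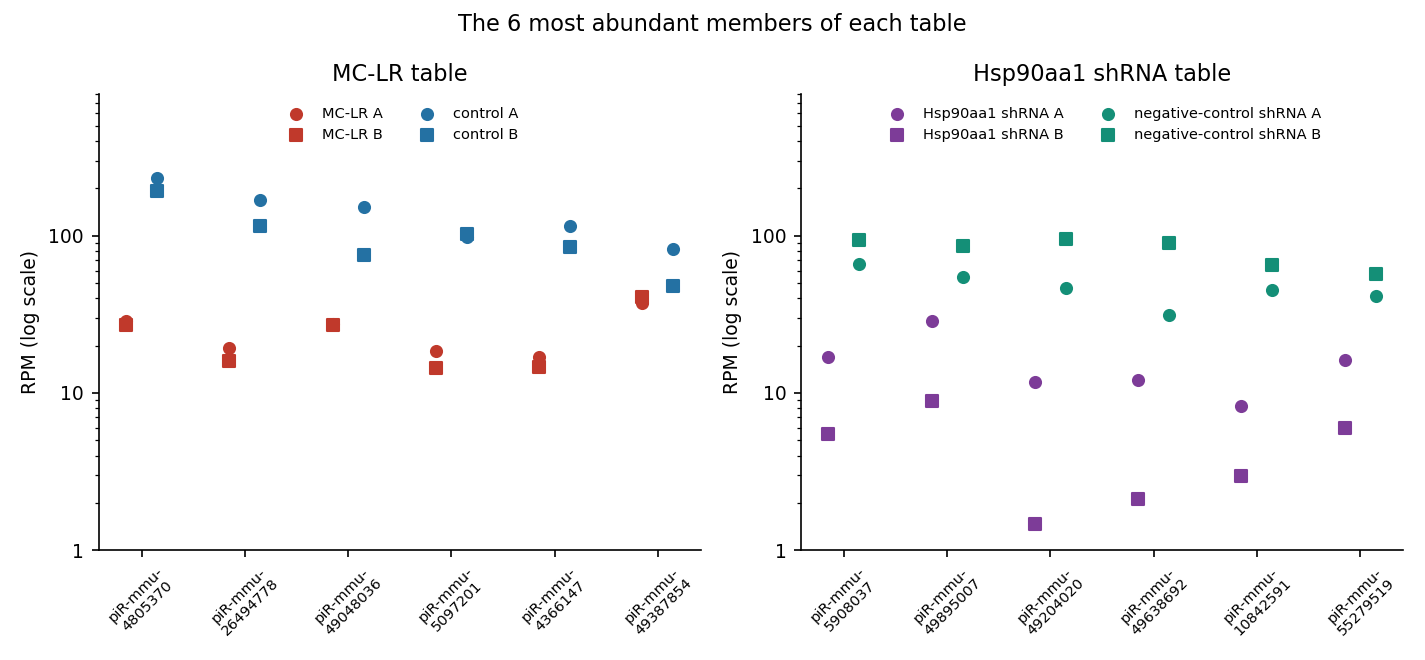
RPM on a log axis (vertical) of the 6 most abundant members of each table (horizontal axis, most abundant first), with circles for library A and squares for library B, MC-LR or Hsp90aa1 shRNA at left and the control at right of each pair. In the MC-LR table piR-mmu-49387854 has the closest groups, at 37.2 and 40.8 RPM, against 81.9 and 48.0 RPM. In the Hsp90aa1 shRNA table library A lies above library B in the Hsp90aa1 shRNA group for every member drawn. These are RPM values, and with scaling within the list piR-mmu-49387854 in the MC-LR table and piR-mmu-49895007 and piR-mmu-55279519 in the other table were not lower.

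The largest falls with the Hsp90aa1 shRNA on the log2(RPM + 1) scale were of members named above for MC-LR. The leading one on that scale was piR-mmu-4805370, with 1.87 and 0.739 RPM with the Hsp90aa1 shRNA, against 31.4 and 36.4 RPM with the negative control, a log2 fold change of -3.96 ± 0.47 (SE; adjusted p = 0.000582, limma). Next came piR-mmu-4366147, with 0.674 and 0.185 RPM, which are 9 and 2 reads, against 12.7 and 20.3 RPM, and a log2 fold change of -3.60. The 20-nt piR-mmu-49048036 had 1.57 and 0.462 RPM with the Hsp90aa1 shRNA, against 14.6 and 34.1 RPM with the negative control, and a log2 fold change of -3.59. In all 3 the groups were far apart, and none was called with TMM scaling within the list (limma adjusted p = 0.286, 0.270 and 0.382). By the ratio of group means the 18-nt piR-mmu-49931290 came first instead, on only 1 and 1 reads with the Hsp90aa1 shRNA, against 34 and 193 reads with the negative control.

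The start at base 131573839 had 5.99 and 2.31 RPM with the Hsp90aa1 shRNA, against 76.4 and 110 RPM with the negative control, 22.5-fold lower. The start at base 131573845 had 16.4 and 5.08 RPM with the Hsp90aa1 shRNA, against 81.2 and 128 RPM with the negative control, 9.76-fold lower. Neither start had the highest sum in any shRNA library. The later start took 3.07% and 1.74% of the locus with the Hsp90aa1 shRNA, against 3.33% and 4.11% with the negative control. Its share was thus not higher, unlike under MC-LR. The smallest falls on the same log2(RPM + 1) scale were of low members: piR-mmu-55790660, piR-mmu-15720617 and piR-mmu-55287196 lay between 0.185 and 0.374 RPM with the Hsp90aa1 shRNA, against 0.927 to 1.49 RPM with the negative control. All 3 were called lower (log2 fold change -0.74, -0.75 and -0.78, limma) and were above 0 with TMM scaling within the list. They reached the mean of 1 RPM needed for testing only with the negative control, which favoured a lower call in advance. By the ratio of group means they were 4.07-fold, 3.78-fold and 4.13-fold lower. The smallest fall by that ratio was that of piR-mmu-55826934, at the very start of the window and named after its values were seen, with 3.07 and 1.75 RPM with the Hsp90aa1 shRNA, against 4.53 and 6.65 RPM with the negative control, a log2 ratio of -1.21.

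Length classes of the first stack did not keep the same order in both comparisons. Under MC-LR, members of 17 to 23 nt summed to 348 ± 20.6 RPM, against 941 ± 419 RPM in controls (SD, n = 2 each), 2.70-fold lower. Those of 24 to 28 nt were 4.64-fold lower and those of 29 to 33 nt 4.56-fold lower. With the Hsp90aa1 shRNA, members of 17 to 23 nt summed to 65.2 ± 58.9 RPM, against 717 ± 365 RPM with the negative control (SD, n = 2 each), 11.0-fold lower. Those of 24 to 28 nt were 10.3-fold lower and those of 29 to 33 nt 6.19-fold lower. Libraries of 1 group differed in length: over the whole locus the shortest class held 32.4% and 19.8% in control A and B, and 44.7% and 21.0% with the Hsp90aa1 shRNA in A and B. The part of this spread in the results by length was not tested.

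The 211 members of both tables showed the stack pattern too. They are part of the members above, in the same libraries, and so give no separate check of it. Among them the first stack, with 132 members, held 77.1% and 77.4% in the MC-LR libraries, against 85.6% and 84.4% in the control libraries. It held 58.6% and 55.9% with the Hsp90aa1 shRNA, against 69.3% and 76.2% with the negative control. The groups did not overlap in either table. The median log2 fold changes in the first, the second and the third stack were -1.44, -0.80 and -0.91 for MC-LR and -1.78, -1.47 and -1.37 for the Hsp90aa1 shRNA. Across the 207 shared members tested in both tables, Spearman's rho between the log2 fold changes was 0.271, a description across overlapping names that share libraries and sequence.

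The difference between the effects was tested for those 207 members, as the MC-LR effect minus the Hsp90aa1 shRNA effect. No member passed (limma, lowest adjusted p 0.0953), beside 1.63% of all 10339 names above 0 and 0.184% below 0. At an unadjusted p under 0.05 there were 42 members, 32 above 0 and 10 below, which is 20.3% of the members, beside 21.7% of all names. The median difference was 0.37 for members and 0.39 for all names, from -1.25 to 2.42 over the members. The highest was that of piR-mmu-49387854, whose log2 fold change was -0.67 with MC-LR and -3.09 with the Hsp90aa1 shRNA (adjusted p = 0.106, limma). That no member passed did not hold in every fit that left out 1 library. Such fits leave 1 library in a group, and their shares over all names are not given here. The tables were scaled apart, so levels were not compared across them.

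Of the members listed in 1 table alone, each table is described by itself. The 40 of the MC-LR table had a median level of 1.59 RPM over the 4 libraries, and the highest was piR-mmu-2003183 at 13.8 RPM. The 111 of the Hsp90aa1 shRNA table had a median of 4.87 RPM, and 60 of them lay in the third stack and 47 were of 17 to 23 nt. How names came to be listed is not given in the sources used here.

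Members listed on chromosome 1 alone were lower as well. In the first stack they all started between bases 131573843 and 131573849, so they are set here beside the members of the chromosome 5 copy with starts in the same range. Under MC-LR the 11 members of chromosome 1 alone summed to 28.3 ± 2.1 RPM, against 73.6 ± 9.45 RPM in controls (SD, n = 2 each), 2.60-fold lower. The 20 members shared with the chromosome 5 copy at those starts summed to 287 ± 15.5 RPM with MC-LR and 648 ± 222 RPM in controls (SD, n = 2 each), 2.25-fold lower. With the Hsp90aa1 shRNA the figures were 7.28-fold for 12 members of chromosome 1 alone and 9.90-fold for 30 shared ones. The order of the kinds of member was thus not the same in both tables. The kinds also differed in length. The median was 26 nt on chromosome 1 alone in each table, against 22 nt (MC-LR table) and 21.5 nt (Hsp90aa1 shRNA table) for shared members. The part of length in this order was not tested.

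In the second stack members of chromosome 1 alone were 2.29-fold lower under MC-LR and shared ones 2.31-fold, and with the Hsp90aa1 shRNA 4.63-fold and 5.07-fold. In the third stack the figures under MC-LR were 2.11-fold for 15 members of chromosome 1 alone and 2.54-fold for 68 shared ones, and with the Hsp90aa1 shRNA 3.87-fold for 29 and 5.30-fold for 91. These differences between the kinds of member were not tested.

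Names at the chromosome 5 copy that are not in the chromosome 1 window gave a further comparison. Under MC-LR and control, 152 such names summed to 337 ± 6.02 RPM with MC-LR and 878 ± 146 RPM in controls (SD, n = 2 each), 2.61-fold lower. Under the shRNAs, 203 such names summed to 198 ± 42.4 RPM with the Hsp90aa1 shRNA and 1049 ± 89.9 RPM with the negative control (SD, n = 2 each), 5.30-fold lower. In each table the groups were apart. The fall was smaller than the 3.51-fold and 6.75-fold of the members, most of which are themselves listed at the chromosome 5 copy. The fall was larger than the 2.29-fold and 4.38-fold of the members listed on chromosome 1 alone. Neither difference was tested.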

How the data were processed

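The authors deposited 2 tables of RPM values, reads scaled to the library total, per locus and name, one for MC-LR and control, one for both shRNA groups. Per the submitters' processing notes, HTSeq 0.6.0, HISAT2 2.1.0 and Bowtie2 2.2.3 were run on the mm10 build; their roles and the listing rule are not given in the sources used. All RPM values were whole multiples of 1 read (100% within 0.01), which gave back reads and library totals. Starts were read as 0-based (63 of 72 let-7 loci then begin at the RefSeq start, against 3) and are printed 1-based. Genes are from GENCODE M21 and RefSeq.

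Each table was fitted alone with limma 3.58.1 (trend, robust) (R 4.3.3). Values were log2(RPM + 1) of names whose mean reached 1 RPM in either group, with Benjamini-Hochberg adjustment over all names at 0.05. The difference of effects used names of both tables. Such fold changes understate those of low members. Fold changes of sums are ratios of group means. Alternatives were a pseudocount of 0.5 RPM, no filter, TMM scaling within the list, the locus with the highest mean, a replicate block, leaving out each library, edgeR 4.0.16 and DESeq2 1.42.0 on recovered reads. Groups came from the sample titles. The members, lists and alternatives were chosen with earlier results of these data known, and named members are the most abundant, the most and least changed, the shortest and longest, and the most abundant of the leading starts. Python 3.11.15, pandas 2.3.3 and matplotlib 3.10.9 were used.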

Additional observations from a re-analysis of the deposited data

How the results depend on the processing

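Scaling decided most calls. With TMM scaling within the list, 1 member under MC-LR and 0 with the Hsp90aa1 shRNA were called, and 15 named members changed sign: under MC-LR piR-mmu-49387854 to 1.00, piR-mmu-55278117 to 0.33, piR-mmu-41691849 to 0.38, piR-mmu-50985445 to 0.72, piR-mmu-49931290 to 0.14, piR-mmu-50608930 to 0.10 and piR-mmu-10876663 to 0.57, and with the Hsp90aa1 shRNA piR-mmu-49895007 to 0.73, piR-mmu-55279519 to 0.52, piR-mmu-55790660 to 0.27, piR-mmu-15720617 to 0.38, piR-mmu-55287196 to 0.32, piR-mmu-67677729 to 0.31, piR-mmu-55871250 to 0.07 and piR-mmu-26433749 to 0.92. By construction that scaling takes out what the whole list shares. Leaving out 1 library gave 96 to 210 members lower under MC-LR, 266 to 303 with the Hsp90aa1 shRNA and 0 to 7 past the threshold for the difference. The log2 ratio of the summed members then ran from -1.91 to -1.71 under MC-LR and from -3.26 to -2.38 with the Hsp90aa1 shRNA, and that of the first to the third stack from -0.82 to -0.47 and from -1.14 to -0.79. The summed log2 ratio under MC-LR was -1.19 over members with a single locus, -2.94 for the most abundant member alone and -0.21 after division by the sum of all listed names, and with the Hsp90aa1 shRNA that division gave 0.12. For the first over the third stack, an alternative chosen after seeing the data, members of 17 to 23 nt gave -0.15 and those of 24 to 28 nt -1.01 under MC-LR; the cause was not tested. DESeq2 called 129 members under MC-LR and 308 with the Hsp90aa1 shRNA. The DESeq2 member medians were -1.53 and -2.75, beside -1.65 and -2.86 over all names. Library letters are not said to pair samples. The A minus B deviations of the groups correlated at 0.0652 and -0.608 over names in the MC-LR and Hsp90aa1 shRNA tables. The fit with the letter as a replicate block called 174 and 307 members lower and 0 for the difference. Its member medians were -1.10 and -1.71, beside -1.17 and -1.66 over all names. Shares of all names called by edgeR, DESeq2 and this block fit are not given here. Outside that list scaling, of 338 values of named members 319 kept direction and side of the threshold, 17 no longer passed, 2 newly passed and 0 changed sign. Few reads per member limit low members: 23 and 9 of 251 in the MC-LR libraries and 21 and 90 of 322 in the Hsp90aa1 shRNA libraries had fewer than 3 reads.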
